A study of Homo sapiens with 6 samples.

Results

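Tubulin is the protein that microtubules are built from, and each building block pairs 1 alpha with 1 beta chain. Human cells carry several genes, called isotypes, for each chain. The isotypes encode closely similar proteins that differ mainly in the tail at the end of the chain, where many microtubule-binding proteins and modifying enzymes act, and tissues use them in different mixtures. Tubulin mRNA is also under a feedback known as autoregulation, in which the factor TTC5 recognises the first residues of a newly made chain on the ribosome and brings about decay of the mRNA when free tubulin is plentiful. The 10 isotypes described here, 4 alpha (*TUBA1A*, *TUBA1B*, *TUBA1C* and *TUBA4A*) and 6 beta (*TUBB*, *TUBB2A*, *TUBB2B*, *TUBB3*, *TUBB4B* and *TUBB6*), were taken by symbol from the 58735 genes measured, and all 10 were found. Of these, 7 had a mean of at least 1 FPKM (fragments per kilobase of exon, on a per-million scale that differs between libraries) and were tested.

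RNA-seq libraries came from HGC27, an established human gastric cancer line, exposed to 0.125 µM ARV-825 for 48 h (n = 3) or to 0 µM as control (n = 3). For the control samples the labels give no time. ARV-825 is a proteolysis-targeting chimera that joins a ligand of the BET bromodomain proteins to a ligand of the ubiquitin ligase subunit cereblon. The labels call the controls untreated and the study's methods name DMSO. Whether the replicates were grown as separate cultures is stated in neither, so the p-values reflect only the spread of these samples, which may be technical, and all values describe 1 line.

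The libraries held 14821971 to 15201942 fragments in genes with ARV-825 and 16626609 to 19145661 in the control, and mitochondrial genes took 9.84% to 12.0% of them with ARV-825 and 5.62% to 6.24% in the control. ARV-825 replicate 1 stood apart from the other two ARV-825 libraries, by a chi-square over the fragments of all genes that came to 6.68 and 6.02 for each degree of freedom, where replicates 2 and 3 gave 1.62 and pairs of controls 1.76 to 2.09. None of 5 epithelial and none of 6 gastric marker genes reached a mean of 1 FPKM. Of 4 mesenchymal genes 3 did, and *CDH2* did not, at 0.0801 FPKM or less in every library. The mesenchymal intermediate filament gene *VIM* had 245 to 248 FPKM with ARV-825 and 262 to 274 FPKM in the control. All 5 genes of a fibroblast list averaged at least 1 FPKM over the libraries, but *PDGFRB* did so through the control alone. It had 0.115 to 0.121 FPKM with ARV-825 and 5.43 to 6.05 FPKM in the control. The fibroblast list summed to 85.8 to 87.4 FPKM with ARV-825 and 246 to 247 FPKM in the control. The part of these marker genes in the tubulin values was not tested. In bulk RNA fewer cells of a type and less RNA per cell cannot be told apart.

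The coding sequences show how alike the isotypes are, which bears both on the proteins and on how well reads can be told apart. The last 60 bases of the coding sequence, which hold the tail and the stop codon, are given 5′ to 3′ for the 4 tested beta isotypes from the GENCODE 29 transcripts, with capitals at bases that differ from *TUBB* in an alignment of the whole coding sequences.
TUBB: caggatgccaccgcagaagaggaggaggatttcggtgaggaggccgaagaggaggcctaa
TUBB2A: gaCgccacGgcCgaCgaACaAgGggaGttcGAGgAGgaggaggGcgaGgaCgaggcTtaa
TUBB2B: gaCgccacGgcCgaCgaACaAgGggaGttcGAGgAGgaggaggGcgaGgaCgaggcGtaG
TUBB4B: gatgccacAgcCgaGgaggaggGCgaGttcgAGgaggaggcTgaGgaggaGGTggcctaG

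*TUBB4B* differed from *TUBB* at 14 of its last 60 bases, with 84.4% identity over the coding sequence. The coding sequences of *TUBA1A* and *TUBA1B* were identical at 97.2% of aligned bases. *TUBB2A* and *TUBB2B*, neighbours on chromosome 6, were identical at 98.1%. The start of the coding sequence, read by the autoregulation factor as protein, was atgagggaaatc in both *TUBB* and *TUBB4B*, and atgCgCgaGatc in *TUBB2A*, with capitals at differences from *TUBB*. Both versions encode the same residues, so the capitals mark no difference in the protein that is read.

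Over whole transcripts the isotypes can be told apart to different degrees. Of all 75-base windows of its transcripts, the share found in no transcript of any other gene was 93.6% for *TUBB4B*, 82.9% for *TUBB*, 76.0% for *TUBA1A*, 72.2% for *TUBA1C* and 67.4% for *TUBA1B*. It was 46.8% for *TUBB2A* and 49.8% for *TUBB2B*, and 50.1% of the *TUBB2A* windows also occur in *TUBB2B*, so the split of reads between these neighbours is uncertain. How reads that map to several genes were counted is not described in the sources used here. *TUBA1B* (chr12:49127782-49131397, minus strand, GRCh38) shares 36.6% of its exon bases with a gene on the opposite strand, *TUBA1A* (chr12:49184796-49189324, minus strand) shares 14.3% with *TUBA1C*, and *TUBB* (chr6:30720201-30725426, plus strand) shares 16.0% with an opposite-strand gene. The corresponding share was 5.87% for *TUBB4B* (chr9:137241213-137243707, plus strand). The library kit is of a type that does not mark strand, so reads in those exons cannot be assigned to 1 gene.

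Tubulin mRNA was lower after ARV-825, and its make-up was different. The sum of the 10 isotypes was 714, 618 and 631 FPKM with ARV-825, against 1130, 1200 and 1180 FPKM in the control, a ratio of 0.559 (log2 ratio −0.84). Every ARV-825 library lay below every control library. The alpha sum was 261, 231 and 238 FPKM with ARV-825, against 393, 433 and 422 FPKM in the control (log2 ratio −0.77). The beta sum was 452, 386 and 393 FPKM with ARV-825, against 733, 770 and 758 FPKM in the control (log2 ratio −0.88). Both chains were lower, the beta sum slightly more so. The alpha to beta ratio, added after the values were seen, was 0.595 ± 0.015 with ARV-825 and 0.551 ± 0.0141 in the control (SD, n = 3 each), with groups that did not overlap. For each of these quantities the exact two-sided permutation test gave p = 0.1, the smallest value that 3 against 3 allows.

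**Figure D1:**
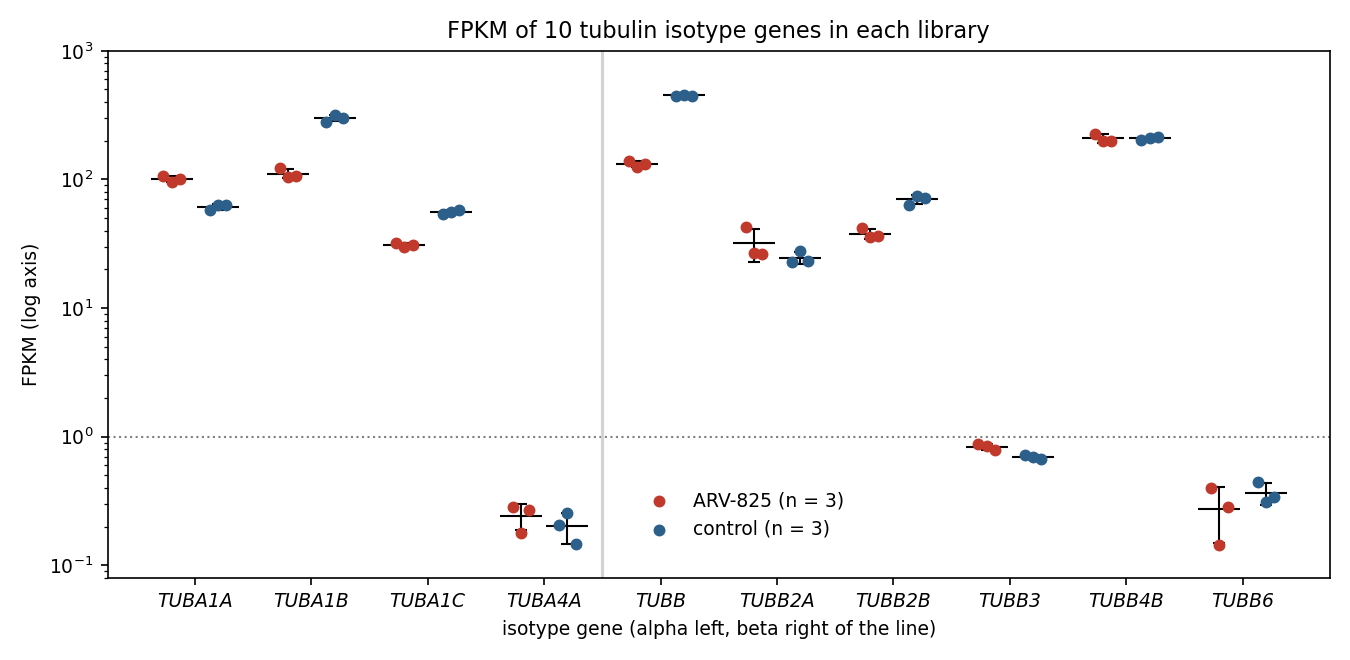
FPKM of each isotype on a log axis, with 1 point per library, ARV-825 (red) left of control (blue), horizontal marks at the mean and bars for the SD (n = 3 each). The dotted line is the 1 FPKM needed on average for testing: TUBA4A, TUBB3 and TUBB6 lie under it, TUBA1A is higher with ARV-825, and TUBA1B, TUBA1C, TUBB and TUBB2B are lower.

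Among the isotypes, *TUBB*, *TUBA1B*, *TUBB2B* and *TUBA1C* fell, *TUBA1A* rose, and *TUBB4B* and *TUBB2A* did not pass the test (limma on log2(FPKM + 1), Benjamini-Hochberg adjusted p under 0.05 over 13442 genes). That is 1 of 7 higher and 4 of 7 lower, where 37.0% of all tested genes were higher and 40.2% lower, so being called lower is common in these data. The 7 isotypes had a median log2 fold change of −0.83, against −0.02 over all tested genes. With an absolute log2 fold change above 1 required as well, *TUBB* and *TUBA1B* were called, both lower, where 12.1% of all tested genes were lower and 8.81% higher past both thresholds. The same 5 isotypes had groups that did not overlap, 1 higher and 4 lower, against 38.5% and 41.6% of all tested genes in those directions.

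*TUBB*, the beta isotype of most dividing cells, had the largest fall of the 7. It had 140, 124 and 131 FPKM with ARV-825, against 445, 457 and 448 FPKM in the control. The highest ARV-825 library was far under the lowest control library, and the mean was 3.42-fold lower with ARV-825 (132 ± 8.21 against 450 ± 6.61 FPKM, SD, n = 3 each). On the log2(FPKM + 1) scale *TUBB* fell by 1.77 (SE 0.0494, limma adjusted p = 3.49e-07).

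*TUBA1B*, the alpha isotype that most cell types express, was the other large fall. It had 122, 105 and 106 FPKM with ARV-825, against 281, 314 and 302 FPKM in the control. The groups were again wide apart, with a mean 2.69-fold lower with ARV-825. On the log2(FPKM + 1) scale *TUBA1B* fell by 1.42 (SE 0.0696, limma adjusted p = 2.67e-06).

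*TUBA1A* moved the other way, although its coding sequence is nearly that of *TUBA1B*. This isotype is the main alpha tubulin of developing neurons, where mutations cause malformations of the cortex. It had 107, 96.2 and 101 FPKM with ARV-825, against 57.6, 62.9 and 62.9 FPKM in the control. All ARV-825 libraries were above all controls, at 1.66 times their mean, and the log2 fold change was 0.72 (SE 0.0545, limma adjusted p = 2e-05). The *TUBA1A* to *TUBA1B* ratio, formed after the values were seen, was 0.88, 0.916 and 0.948 with ARV-825, against 0.205, 0.2 and 0.209 in the control. In fragments, *TUBA1A* had 4949 to 5351 per library with ARV-825 and 3535 to 4341 in the control, so counting error is small beside the difference.

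*TUBA1C* is a further broadly expressed alpha isotype, whose gene overlaps *TUBA1A* on the opposite strand. It had 32.1, 30.0 and 30.7 FPKM with ARV-825, against 54.0, 55.8 and 57.5 FPKM in the control. The groups did not overlap, and *TUBA1C* fell by 0.83 on the log2(FPKM + 1) scale (SE 0.0406, limma adjusted p = 2.65e-06). *TUBB2B*, a beta isotype best known from developing neurons, had 41.7, 35.7 and 36.1 FPKM with ARV-825, against 63.8, 74.8 and 71.1 FPKM in the control. It fell by 0.87 on the same scale (SE 0.0798, limma adjusted p = 5.37e-05), within the limit on telling it from *TUBB2A*.

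*TUBB4B*, a widely expressed beta isotype that is also a main beta tubulin of cilia, did not pass the test on the FPKM scale. It had 227, 199 and 198 FPKM with ARV-825, against 201, 209 and 215 FPKM in the control. The groups overlapped and their means were 208 ± 16.2 and 208 ± 6.77 FPKM (SD, n = 3 each), with a log2 fold change of −0.01 (SE 0.0599, limma adjusted p = 0.931). Against *TUBB*, its level was 1.61, 1.6 and 1.52 times as high in the ARV-825 libraries, and 0.453, 0.458 and 0.479 times in the control libraries, a ratio formed after the values were seen.

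*TUBB2A*, a beta isotype abundant in brain, had 42.6, 26.8 and 26.4 FPKM with ARV-825, against 22.7, 27.8 and 23.4 FPKM in the control. The first ARV-825 library, which stood apart from the others over all genes, was high, and the remaining ARV-825 libraries lay within the control range. The log2 fold change was 0.33 (SE 0.185, limma adjusted p = 0.141), and 0.11 (adjusted p = 0.277) without ARV-825 replicate 1.

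The remaining isotypes were close to the limit of detection. *TUBB3*, a marker of neurons that is also used as a marker of resistance to taxanes in tumours, had 0.882, 0.841 and 0.787 FPKM with ARV-825, against 0.718, 0.695 and 0.671 FPKM in the control. The groups did not overlap, but these values rest on 51 to 57 fragments with ARV-825 and 53 to 60 in the control, and 35.8% of the exon bases of *TUBB3* also belong to a read-through gene on the same strand. With no filter on low values its log2 fold change was 0.12 (limma adjusted p = 0.29). *TUBA4A*, an alpha isotype of platelets and neurons, had 0.286, 0.179 and 0.268 FPKM with ARV-825, against 0.205, 0.256 and 0.146 FPKM in the control, from 11 to 17 and 12 to 18 fragments. *TUBB6*, the beta isotype whose coding sequence is least like that of *TUBB* (80.9% identity), had 0.4, 0.145 and 0.282 FPKM with ARV-825, against 0.447, 0.31 and 0.337 FPKM in the control. For both the groups overlapped, and a difference was not detectable at this depth.

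These levels gave the isotypes a different order in each group. With ARV-825 the order of mean FPKM was *TUBB4B*, *TUBB*, *TUBA1B*, *TUBA1A*, *TUBB2B*, *TUBB2A*, *TUBA1C*, *TUBB3*, *TUBB6* and *TUBA4A*. In the control it was *TUBB*, *TUBA1B*, *TUBB4B*, *TUBB2B*, *TUBA1A*, *TUBA1C*, *TUBB2A*, *TUBB3*, *TUBB6* and *TUBA4A*. With ARV-825 the neighbours *TUBA1B* and *TUBA1A*, *TUBB2B* and *TUBB2A*, *TUBB2A* and *TUBA1C*, and *TUBB6* and *TUBA4A* overlapped in their libraries, whereas in the control no neighbours did.

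The share of each isotype in the summed FPKM does not depend on how a library was scaled, and it showed the change in make-up directly. *TUBB4B* made up 31.7%, 32.2% and 31.5% of the tubulin FPKM in the ARV-825 libraries, against 17.9%, 17.4% and 18.2% in the control libraries, and was the most abundant isotype with ARV-825 and the third in the control. *TUBB* made up 19.7%, 20.1% and 20.7% with ARV-825, against 39.5%, 38.0% and 38.0% in the control. The replicates thus lay within about 1 or 2 points of each other, while the groups were 14.0 points apart for *TUBB4B* and −18.3 points apart for *TUBB*.

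**Figure D2:**
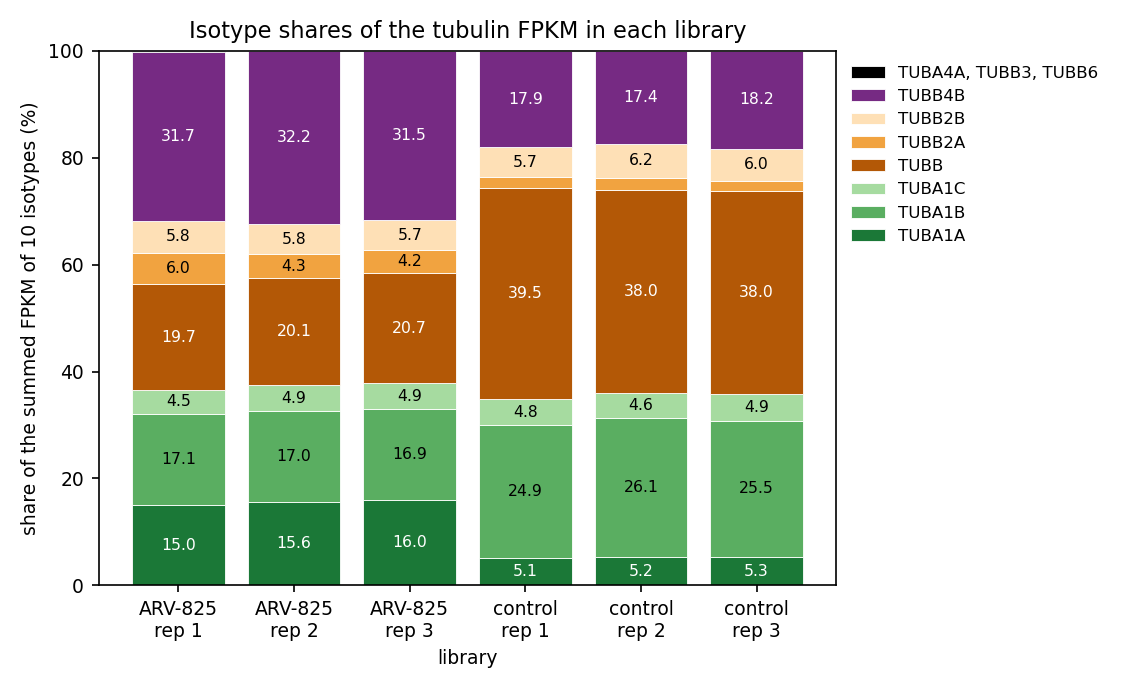
Share of each isotype in the summed FPKM of the 10 isotypes, as stacked bars in percent, for the 3 ARV-825 libraries (left) and the 3 control libraries (right). Green marks alpha isotypes, orange and purple beta isotypes. TUBB4B (purple) and TUBA1A (dark green) take 47.3% of the bar on average with ARV-825 and 23.0% in the control, and TUBA4A, TUBB3 and TUBB6 together are too small to see.

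The alpha isotypes showed the same kind of shift. *TUBA1A* made up 15.0%, 15.6% and 16.0% of the tubulin FPKM with ARV-825, against 5.12%, 5.23% and 5.33% in the control, 2.97 times the control share. *TUBA1B* made up 17.1%, 17.0% and 16.9% with ARV-825, against 24.9%, 26.1% and 25.5% in the control. Within the alpha class alone, *TUBA1A* held 41.7% ± 0.668 with ARV-825 and 14.7% ± 0.185 in the control, and *TUBA1B* held 45.5% ± 0.981 with ARV-825 and 71.8% ± 0.609 in the control (SD, n = 3 each). Within the beta class, *TUBB4B* held 50.7% ± 0.69 with ARV-825 and 27.6% ± 0.594 in the control, and *TUBB* held 32.2% ± 1.12 with ARV-825 and 59.7% ± 0.803 in the control (SD, n = 3 each). *TUBA1B* and *TUBB* together came to 37.1% ± 0.42 with ARV-825 and 64.0% ± 0.457 in the control.

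*TUBB2A* also took a larger share, with 5.96%, 4.33% and 4.18% of the tubulin FPKM with ARV-825, against 2.01%, 2.31% and 1.98% in the control. *TUBA1C* and *TUBB2B* fell with the total and their shares overlapped, at 4.74% ± 0.212 with ARV-825 and 4.77% ± 0.122 in the control for *TUBA1C*, and 5.78% ± 0.0599 with ARV-825 and 5.97% ± 0.281 in the control for *TUBB2B* (SD, n = 3 each). The 3 isotypes near the detection limit together came to 0.207% with ARV-825 and 0.108% in the control. *TUBB3* and *TUBA4A* had shares that did not overlap, at 0.128% with ARV-825 and 0.0594% in the control for *TUBB3*, and 0.0372% with ARV-825 and 0.0173% in the control for *TUBA4A*. The sum was lower with ARV-825, so the share of a gene rises even where its FPKM stays level. With no filter, neither gene passed on FPKM (limma adjusted p = 0.29 for *TUBB3* and 0.546 for *TUBA4A*). With every library scaled to the same summed tubulin FPKM, 70.1% of all tested genes were higher.

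Over the 10 shares the exact permutation test gave p = 0.1 (0.143 after adjustment over the 10) for each isotype with groups that did not overlap, which is the smallest p of this design. A fit across all genes can go lower. With every library scaled to the same summed tubulin FPKM, *TUBA1A* (log2 fold change 1.55, limma adjusted p = 1.34e-07), *TUBB2A* (1.14, adjusted p = 0.000115) and *TUBB4B* (0.83, adjusted p = 7.85e-07) were higher relative to total tubulin, and *TUBB* (−0.93, adjusted p = 6.77e-07) and *TUBA1B* (−0.58, adjusted p = 3.34e-06) were lower. *TUBA1C* (−0.01, adjusted p = 0.85) and *TUBB2B* (−0.04, adjusted p = 0.383) did not pass. On that scale 70.1% of all tested genes were higher and 14.6% lower, so 3 of 7 higher and 2 of 7 lower describe the isotypes against each other, not against the rest of the genes. Without ARV-825 replicate 1 the same fit again called 3 higher and 2 lower.

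Rank by fragments differs from rank by FPKM, since *TUBB* has longer exons (3359 bases) than *TUBB4B* (2111 bases). In recovered fragments, *TUBB* held 23.2% with ARV-825 and 41.0% in the control, and *TUBB4B* held 22.9% with ARV-825 and 11.9% in the control. On that scale *TUBB* was first in all 3 control libraries, while with ARV-825 *TUBB4B* had more fragments than *TUBB* in 2 of the 3 libraries (6972 against 6878, 6303 against 6268 and 6130 against 6422), so their order with ARV-825 is not settled. The direction of both changes was as in FPKM.

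**Figure D3:**
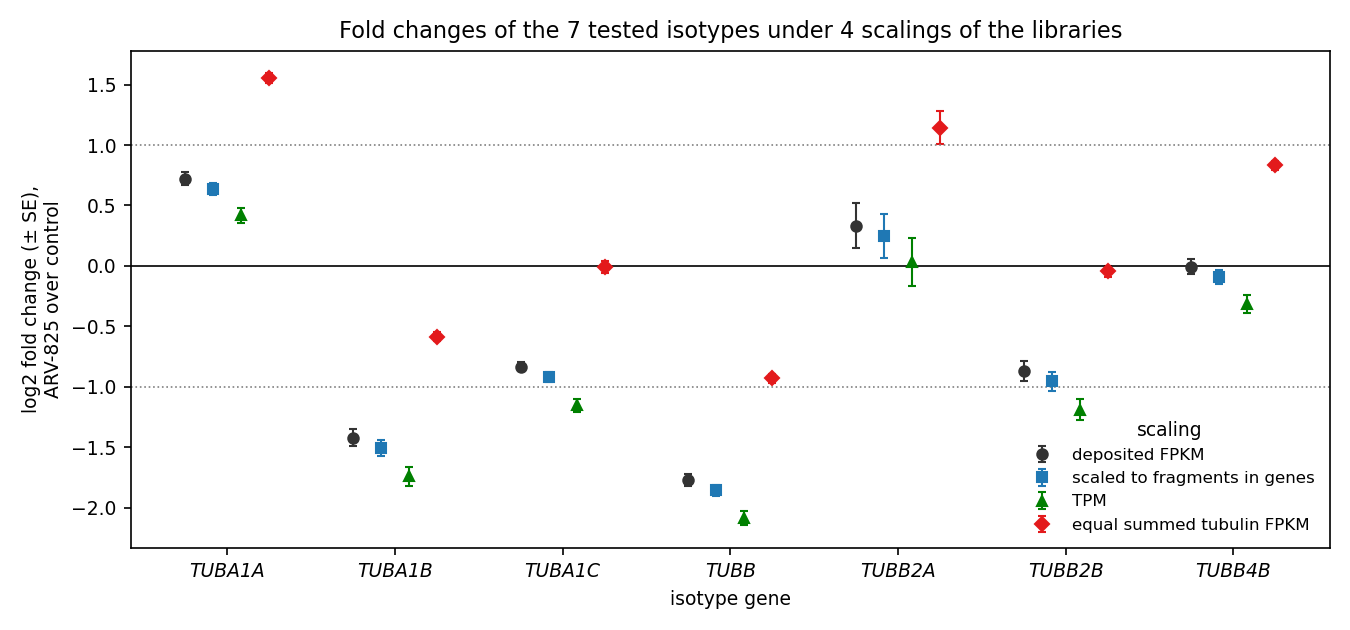
Log2 fold change, ARV-825 over control, of the 7 tested isotypes with the SE from limma, on the deposited FPKM values and with the libraries scaled in 3 other ways. TUBA1A is above 0 and TUBA1B and TUBB below 0 on every scale, while TUBB4B is at −0.01 on the FPKM scale, −0.32 on TPM and 0.83 against total tubulin.

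How the libraries are scaled moves all isotypes together. The authors' scale lies below the fragments in genes in the ARV-825 libraries and above them in the control. Rescaled to TPM, the median over all genes shifted to a log2 fold change of −0.31, with 3176 genes higher and 7214 lower, against 4977 higher and 5405 lower on FPKM. The summed tubulin was then 2050, 1710 and 1750 TPM with ARV-825, against 3950, 4090 and 4180 TPM in the control (log2 ratio −1.15). *TUBB4B* fell by 0.32 on TPM (limma adjusted p = 0.00596), which is close to the median of all genes on that scale. *TUBA1A* was higher at 0.42 to 1.55 and *TUBB* lower at −2.08 to −0.93 over all scales and settings tried.

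All 10 isotypes matched a RefSeq promoter entry (GRCh38.p14), and the 250 bases before each annotated start were searched on both strands for CCAAT, the GC box GGGCGG, the E box CACGTG, the CHR element TTTGAA and TATAAA. The CCAAT box was found for 7 of the 10, 3 times at *TUBB4B*, 2 times at *TUBA1A* and at one of the *TUBB* starts among them, and not at *TUBA1B*, *TUBA4A* or *TUBB2A*, where 32.0% of 35097 promoters held at least 1. Both matches at *TUBA1A* lie within the annotated span of the gene, since only the first 6 bases of its window come before that span. The windows of *TUBA4A*, *TUBA1C*, *TUBB2B* and *TUBB3*, and those of the later starts of *TUBB* and *TUBB6*, also lie within the gene spans. Those later starts hold the *TUBB6* CCAAT box and the *TUBB* E box. The GC box was found for 8 of the 10, 3 times at *TUBA1B*, 4 at *TUBA4A*, 5 at *TUBB2A* and in both *TUBB* windows among them, and in neither the *TUBA1A* nor the *TUBB4B* window, where 42.6% of promoters held one. *TUBA1B*, *TUBA4A* and *TUBB2A* held the GC box and no CCAAT. Whether any of these motifs bears on the isotype levels was not tested. The E box was found at *TUBB* and *TUBA1C* (6.34% of promoters), TTTGAA at *TUBB4B* and *TUBA1C* (13.3%) and TATAAA at *TUBB2A* (10.7%). The counts of isotypes take a match at any annotated start, and *TUBA1C*, *TUBB*, *TUBB3* and *TUBB6* have more than 1 start. The percentages are of single promoters, so counts and percentages are not a like comparison. These are matches of letters and not measured sites.

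For *TUBB4B*, which gained the most points of summed tubulin FPKM, and *TUBA1B*, the alpha isotype that lost the most, the part of the window outside annotated exons is given 5′ to 3′ on the gene's strand, from chr9:137241037-137241212 (plus strand) and chr12:49131398-49131645 (minus strand), with CCAAT and GC boxes, on either strand, in capitals. The GC boxes printed for *TUBA1B* are 2 that overlap, read on the opposite strand. These windows do not stand for the other isotypes. *TUBB*, which lost the most points of all, held both motifs, and *TUBB2A*, which gained share, held GC boxes and no CCAAT.
TUBB4B: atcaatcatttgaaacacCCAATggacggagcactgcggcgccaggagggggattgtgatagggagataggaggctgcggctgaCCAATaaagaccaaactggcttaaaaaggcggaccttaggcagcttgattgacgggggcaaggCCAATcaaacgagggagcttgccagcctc
TUBA1B: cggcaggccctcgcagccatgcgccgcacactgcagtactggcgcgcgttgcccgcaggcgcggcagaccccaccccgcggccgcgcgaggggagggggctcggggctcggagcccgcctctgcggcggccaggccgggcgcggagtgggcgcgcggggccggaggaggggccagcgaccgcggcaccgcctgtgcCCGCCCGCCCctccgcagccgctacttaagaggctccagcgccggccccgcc

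Among the other tubulin genes, 5 of 12 were tested, of which 4 fell and 1 rose. Over all tested genes 40.2% were lower and 37.0% higher, and this count and that of the pseudogenes below rest on few genes. *TUBB4A* (mean 0.261 FPKM with ARV-825 and 3.97 FPKM in the control) and the pseudogene *TUBAP2* (0.702 and 1.4 FPKM) passed the filter only through the control. A fall was thus partly built into their being tested. *TUBB4A*, a beta isotype of brain and myelinating cells, had 0.218, 0.25 and 0.315 FPKM with ARV-825, against 3.83, 4.07 and 4.02 FPKM in the control, and fell by 1.98 on the log2(FPKM + 1) scale (limma adjusted p = 7.11e-07). *TUBG1*, the gamma-tubulin that nucleates microtubules at centrosomes, had 31.5 to 36.7 FPKM with ARV-825 and 49.1 to 50.6 FPKM in the control and fell by 0.57. Its close copy *TUBG2* had 11.4 to 11.8 FPKM with ARV-825 and 5.76 to 6.72 FPKM in the control and rose (0.81, adjusted p = 1.37e-05). *TUBE1*, an epsilon-tubulin of centrioles, fell by 0.44. Of 52 tubulin pseudogenes, copies of tubulin genes that encode no full protein, 3 were tested and all fell: *TUBBP1* had 1.21 to 1.49 FPKM with ARV-825 and 3.76 to 4.31 FPKM in the control (log2 fold change −1.10), *TUBB2BP1* was at −0.67 and *TUBAP2* at −0.50. *TUBBP1* shares 6.22% of the 75-base windows of *TUBB*, so its reads and those of *TUBB* are not fully separable.

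**Figure D4:**
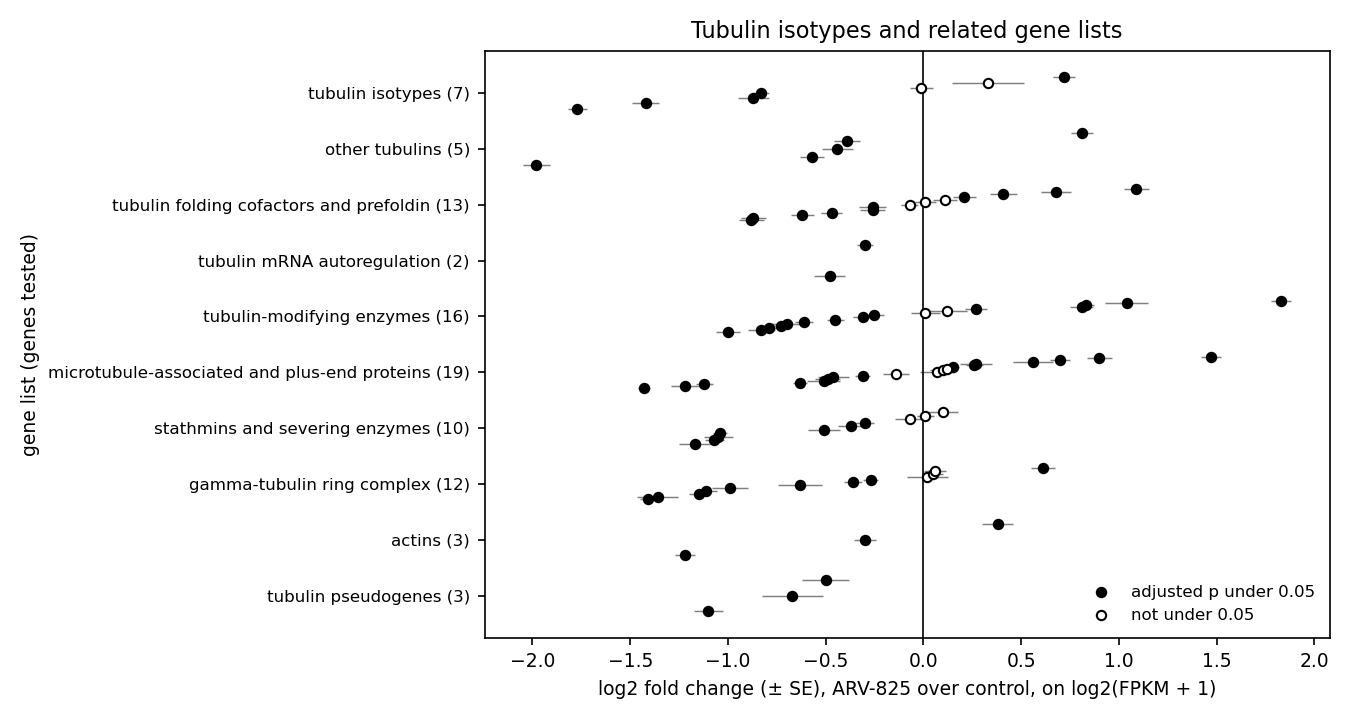
Log2 fold change, ARV-825 over control, with its SE for each tested gene of the isotypes and of the related lists, with filled points at an adjusted p under 0.05 (limma). The folding list spreads to both sides of 0 with a median of −0.07, while the stathmin and severing list (−0.44) and the gamma-tubulin ring complex list (−0.50) lie mostly to the left.

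Genes that act on tubulin were counted in the same fit, beside the 37.0% higher and 40.2% lower over all tested genes. The filter takes the mean over both groups, so some of these genes were tested only through the group where they were higher. *VASH2* and *FIGN* were such cases through the control, and some others were so through ARV-825. New chains are folded with prefoldin and the tubulin cofactors, and of these 13 genes 4 rose, 6 fell and 3 did not pass (median −0.07). *PFDN4*, a prefoldin subunit, had 5.96 to 6.53 FPKM with ARV-825 and 11.6 to 13.6 FPKM in the control (−0.88), and *ARL2*, a small GTPase that works with the cofactors, had 15.3 to 18.0 FPKM with ARV-825 and 30.1 to 31.9 FPKM in the control (−0.87). *ARL2* shares 17.5% of its exon bases with a read-through gene. *TBCC*, the cofactor of the last folding step, rose (0.68), as did *TBCEL*, a relative of cofactor E that destabilises tubulin (1.09).

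Of the autoregulation factors, *TTC5* had 1.05, 1.3 and 1.36 FPKM with ARV-825, against 1.99, 2.21 and 2.11 FPKM in the control, and fell by 0.48 (limma adjusted p = 0.0012). *CNOT11*, a subunit of the CCR4-NOT deadenylase that removes the tail of such mRNAs, had 15.1 to 16.2 FPKM with ARV-825 and 19.1 to 19.9 FPKM in the control and fell by 0.30 (adjusted p = 0.000399). *SCAPER*, the adaptor between both, averaged under 1 FPKM and was not tested, with 0.419, 0.476 and 0.553 FPKM with ARV-825, against 1.23, 1.16 and 1.01 FPKM in the control.

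Of 28 tubulin-modifying enzymes 16 were tested, of which 5 rose, 9 fell and 2 did not pass (median −0.28). *TTLL3*, a glycylase of axonemal tubulin, rose to 10.0, 10.2 and 10.1 FPKM with ARV-825, against 2.28, 1.94 and 2.16 FPKM in the control (1.83, limma adjusted p = 3.71e-07). *TTLL1*, a glutamylase, also rose (1.04). *TTLL12*, a divergent member of that family, fell by 1.00, and *VASH2*, a carboxypeptidase that removes the last tyrosine of alpha tubulin, fell by 0.83.

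Of 25 microtubule-associated and plus-end genes 19 were tested, of which 7 rose, 8 fell and 4 did not pass (median 0.07). *TPX2*, a spindle assembly factor, had 26.9 to 27.9 FPKM with ARV-825 and 75.0 to 76.3 FPKM in the control (−1.43), and *TACC3*, also of the spindle, had 12.1 to 14.7 FPKM with ARV-825 and 31.2 to 32.2 FPKM in the control (−1.22). *MAP1A* and *MAP1B*, related neuronal lattice proteins, moved apart: *MAP1A* had 11.6 to 13.0 FPKM with ARV-825 and 3.74 to 3.87 FPKM in the control (1.47), and *MAP1B* had 13.5 to 14.5 FPKM with ARV-825 and 31.3 to 33.0 FPKM in the control (−1.12).

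Of the stathmins and severing enzymes, which take microtubules apart, 7 of the 10 tested genes fell and the other 3 did not pass (median −0.44). *STMN1*, which binds free tubulin, had 18.4 to 19.3 FPKM with ARV-825 and 39.5 to 40.5 FPKM in the control (−1.04). *FIGNL1* (−1.17) and *FIGN*, fidgetin (−1.05), also fell. Of the 12 genes of the gamma-tubulin ring complex and its anchors, on which microtubules start, 8 fell, 1 rose and 3 did not pass (median −0.50). The largest falls were those of *CDK5RAP2* (−1.41), *MZT2A* (−1.36), *TUBGCP3* (−1.15) and *MZT1* (−1.11).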

How the data were processed

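Poly(A) RNA of HGC27 cells, in 3 ARV-825 and 3 control libraries, was analysed from 1 table of the whole series. The authors deposited FPKM values, which their processing notes credit to HISAT2 2.0.5. The notes give mm10, a mouse build, but the 58735 identifiers are all human ones and present in GENCODE 29. No counting tool and no annotation are named in the sources used here. FPKM times exon length gave whole fragments for 100% of values above 0, within 0.05, and these set the depth.

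From the deposited values, log2(FPKM + 1) was compared for the 13442 genes that averaged 1 FPKM or more by limma 3.58.1 (intensity trend, no covariate, R 4.3.3), adjusted by Benjamini-Hochberg and checked on simulated data. Fold changes on this scale understate the change of low genes. Sums and shares were compared by exact two-sided permutation tests. Sequences came from GENCODE 29 transcripts and RefSeq promoters and were aligned with Biopython 1.88.

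The isotypes and lists were chosen with earlier results of these data known. Named are the 10 isotypes, the most changed genes of each list (up to 4, at an adjusted p under 0.05), all genes of lists of 6 or fewer, and tested pseudogenes; a gene of these is left unreported. Alternatives covered the pseudocount, the filter, the scaling, the variance model, a replicate block, the denominator of the shares and each library left out in turn. Intervals of depth cover counting error only.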

Additional observations from a re-analysis of the deposited data

How the results depend on the processing

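Of the 7 tested isotypes, *TUBA1A*, *TUBA1B* and *TUBB* kept direction and call under every setting tried. With equal summed tubulin FPKM the count was 3 higher and 2 lower, with 2 higher and 0 lower past both thresholds (limma; the fold threshold stopped *TUBB* at −0.93). There *TUBB4B* went to 0.83, *TUBA1C* to −0.01 and *TUBB2B* to −0.04. On that scale 4204 of all 13442 tested genes were higher and 467 lower past both thresholds. On TPM 4 isotypes were lower past both thresholds, where 2978 of all 13442 tested genes were, against 1630 on FPKM. Quantile normalization called 2 higher, adding *TUBB2A* (0.44, limma adjusted p = 0.0394, where its range over all settings was 0.000115 to 0.886). It called 5335 of all tested genes higher, against 4977 on FPKM. On TPM 4 microtubule-associated genes and 0 actins were higher (limma, against 7 and 1 on FPKM). Over all tested genes 3176 were higher on TPM, so these counts moved along with those of all genes. Leaving out each library gave 0 to 1 higher stathmin or severing gene and 1 to 2 higher genes of the gamma-tubulin ring complex, the higher counts without ARV-825 replicate 1, and 3 higher and 2 lower isotypes in every case for the shares. The log2 ratio of summed tubulin ranged from −1.15 to −0.80, and no share difference between groups that did not overlap changed direction. With the replicate number as a block, 1 isotype was higher and 4 lower, as without it. The labels number the samples of both groups but state no pairing. Correlations of the deviations of samples with the same number were 0.00421, 0.0414 and 0.0378, and each ARV-825 library correlated best with its own number. Whether samples with the same number were handled together is not settled. Depth limits *TUBA4A*, *TUBB3* and *TUBB6*.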

Other observations

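Actins, the building blocks of the other large filament system, were measured beside tubulin. *ACTB*, cytoplasmic beta-actin, had 714, 629 and 644 FPKM with ARV-825, against 786, 833 and 818 FPKM in the control, and fell by 0.30 on the log2(FPKM + 1) scale (limma adjusted p = 0.00232). *ACTG1*, cytoplasmic gamma-actin, had 150, 132 and 139 FPKM with ARV-825, against 322, 337 and 326 FPKM in the control, and fell by 1.22 (limma adjusted p = 1.44e-06). Both genes encode nearly the same protein, and both falls were called on FPKM and on TPM. *ACTA2*, smooth muscle actin, had 1.57, 1.45 and 1.45 FPKM with ARV-825, against 0.787, 0.995 and 0.949 FPKM in the control (0.38, adjusted p = 0.00377), a call that was not made on TPM. *ACTA1* of skeletal muscle was too low to test, with 0.459, 0.445 and 0.731 FPKM with ARV-825, against 0.0373, 0.117 and 0.0994 FPKM in the control. *ACTC1* and *ACTG2* were at or under 0.0867 FPKM in every library.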
